A study of Mus musculus and Homo sapiens with 14 samples.

Results

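The Hox, Sox and Pax genes encode DNA-binding developmental factors, and they were described here in 3 RNA sequencing count tables. Members were chosen by symbol, as every gene named Hoxa, Hoxb, Hoxc, Hoxd, Sox or Pax followed by a number and nothing else, and a member was described in a table where its reads summed to 10 or more over all libraries. All 3 tables listed 67 such genes. The total reached 10 reads for 47 of them among 50559 genes in the EL4 tumour table, for 49 among 55969 in the EG7-OVA table and for 17 among 43432 in the NKYS table. These totals set the membership and support nothing below. Just inside the minimum stood Hoxa9 and Hoxb9 with 10 reads in EL4, Pax9 with 15 in EG7-OVA and Hoxa10, Hoxb3 and Hoxb6 with 10 in NKYS. Just outside it, Sox11 had 9 reads in EL4, Sox5 had 9 in EG7-OVA, and Hoxa7 and Hoxa9 had 9 in NKYS.

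The series holds 14 libraries of total RNA in 7 groups of 2, all labelled wild type. EL4 is a mouse T-cell lymphoma line, and its tumours carry the labels P0 and P3, whose meaning, host and site the labels do not give. EG7-OVA, an ovalbumin-expressing derivative of EL4, received DMSO as the solvent control, azacytidine at 1.5 µM or decitabine at 0.2 µM. NKYS is a human NK/T-cell lymphoma line and received DMSO or azacytidine at 1.0 µM. Each culture was treated at 0, 24 and 48 h, and RNA was taken at 72 h. The growth protocol also lists a medium with IL-2, without making clear for which line. Nothing in the labels says that the libraries of a group came from separate animals or cultures, so p-values here measure the spread between libraries, which may be technical. Library totals were 15690747 to 25328708 reads in the mouse tables and 1571555 to 1842159 in NKYS.

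Hox genes stand in 4 clusters and are switched on in their order along the chromosome, with low-numbered genes patterning the front of the embryo and high-numbered genes the rear. Polycomb complexes and DNA methylation keep many Hox, Sox and Pax genes silent in adult cells, while some Hox and Sox genes act in blood stem cells and T-cell precursors and Pax5 fixes the B-cell fate. Azacytidine, a ribose nucleoside, and decitabine, its deoxyribose form, both deplete the DNA methyltransferases that maintain cytosine methylation.

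Since methylation acts on CG pairs, the stretch before the transcription start is shown for members that the comparisons below turn on. The motif searched was CG, which reads the same on both strands. RefSeq promoters on GRCm38.p6 were matched for 42 of the 67 members, with 52 start sites among 32851 in all. Hoxb6, Hoxb7, Hoxb9, Hoxb13, Sox9 and Pax3 are among those without an entry. In the 250 bases before the start, members held a median of 13 CG pairs and all promoters a median of 6. A window held 10 or more CG pairs in 63.5% of member promoters and 37.8% of all promoters, and at least 1 pair in 100% and 92.1%. This count describes sequence, and no methylation was measured. The windows below run 5′ to 3′ on the gene's own strand, end at the last base before the start and have each CG pair in capitals. They hold 12 CG pairs for Hoxb8 (chr11:96281655-96281904, plus strand), 14 for Hoxb4 (chr11:96318017-96318266, plus strand), 3 for Hoxd4 (chr2:74721728-74721977, plus strand), 6 for Hoxd8 (chr2:74704365-74704614, plus strand) and 19 for Pax5 (chr4:44710695-44710944, minus strand). Hoxb8 had the steepest rise of the Hoxb cluster with both drugs and Hoxb4 a smaller one. Hoxd4 also rose with both drugs, while Hoxd8 and Pax5 passed with neither. Hoxd4 and Hoxd8 were higher in P3 tumours, and Pax5 was lower there.
Hoxb8: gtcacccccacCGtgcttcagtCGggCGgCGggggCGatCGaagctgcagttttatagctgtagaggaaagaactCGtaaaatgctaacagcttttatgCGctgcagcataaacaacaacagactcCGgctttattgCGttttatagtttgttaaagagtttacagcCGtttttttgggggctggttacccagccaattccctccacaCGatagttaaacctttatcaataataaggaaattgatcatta
Hoxb4: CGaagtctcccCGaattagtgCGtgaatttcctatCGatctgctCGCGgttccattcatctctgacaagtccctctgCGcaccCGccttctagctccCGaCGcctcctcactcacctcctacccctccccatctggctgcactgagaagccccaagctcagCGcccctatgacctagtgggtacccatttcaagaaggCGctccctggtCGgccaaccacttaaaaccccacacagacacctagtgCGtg
Hoxd4: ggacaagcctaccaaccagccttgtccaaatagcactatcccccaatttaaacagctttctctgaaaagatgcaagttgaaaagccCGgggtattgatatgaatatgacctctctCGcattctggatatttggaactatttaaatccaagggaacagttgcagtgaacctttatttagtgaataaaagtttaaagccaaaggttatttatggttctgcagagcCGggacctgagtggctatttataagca
Hoxd8: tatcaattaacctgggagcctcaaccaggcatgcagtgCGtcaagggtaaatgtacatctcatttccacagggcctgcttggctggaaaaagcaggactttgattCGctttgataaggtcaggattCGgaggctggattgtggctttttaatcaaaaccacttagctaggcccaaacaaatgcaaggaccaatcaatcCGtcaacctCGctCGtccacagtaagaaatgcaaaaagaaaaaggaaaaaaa
Pax5: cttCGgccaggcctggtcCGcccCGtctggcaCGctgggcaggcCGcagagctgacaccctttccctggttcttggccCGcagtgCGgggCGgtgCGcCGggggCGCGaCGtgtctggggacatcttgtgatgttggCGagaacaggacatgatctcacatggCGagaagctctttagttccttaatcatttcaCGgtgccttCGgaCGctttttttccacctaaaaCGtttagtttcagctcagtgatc

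In EG7-OVA cells given azacytidine, 11 of 38 tested members changed, against 20.3% of all 19123 genes tested. Of these, 10 rose, where 13.6% of all genes rose, and 1 fell, where 6.70% did. The median log2 fold change was 0.61 over the tested members and 0.03 over all genes. With decitabine 10 members changed, against 16.7% of all genes: 8 rose, where 12.4% of all genes did, and 2 fell, where 4.30% did. The member median was 0.46 and that of all genes 0.04. A gene passed at an adjusted p under 0.05 by edgeR's quasi-likelihood test with Benjamini-Hochberg adjustment over all genes. Both drugs were compared with the same 2 DMSO libraries, so their values are given side by side and are not independent. Of the 49 described members, 11 were too low for the test, and 10 of the 38 tested reached the read minimum in some groups only. The calls of Hoxb8 and Sox9 with both drugs and of Hoxd13 with azacytidine were of members that entered the test through treated libraries. These had to be higher there. Hoxb7, called with both drugs, reached the minimum in all treated libraries and 1 DMSO library, so the filter favoured a higher level with treatment. Of the members at the minimum in both groups, 7 of 29 were called with azacytidine and 7 of 28 with decitabine. The share of all genes called under that condition was not computed. The plot of EG7-OVA fold changes shows 37 of the tested members, and the remaining one passed with neither drug and is not reported here.

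**Figure D1:**
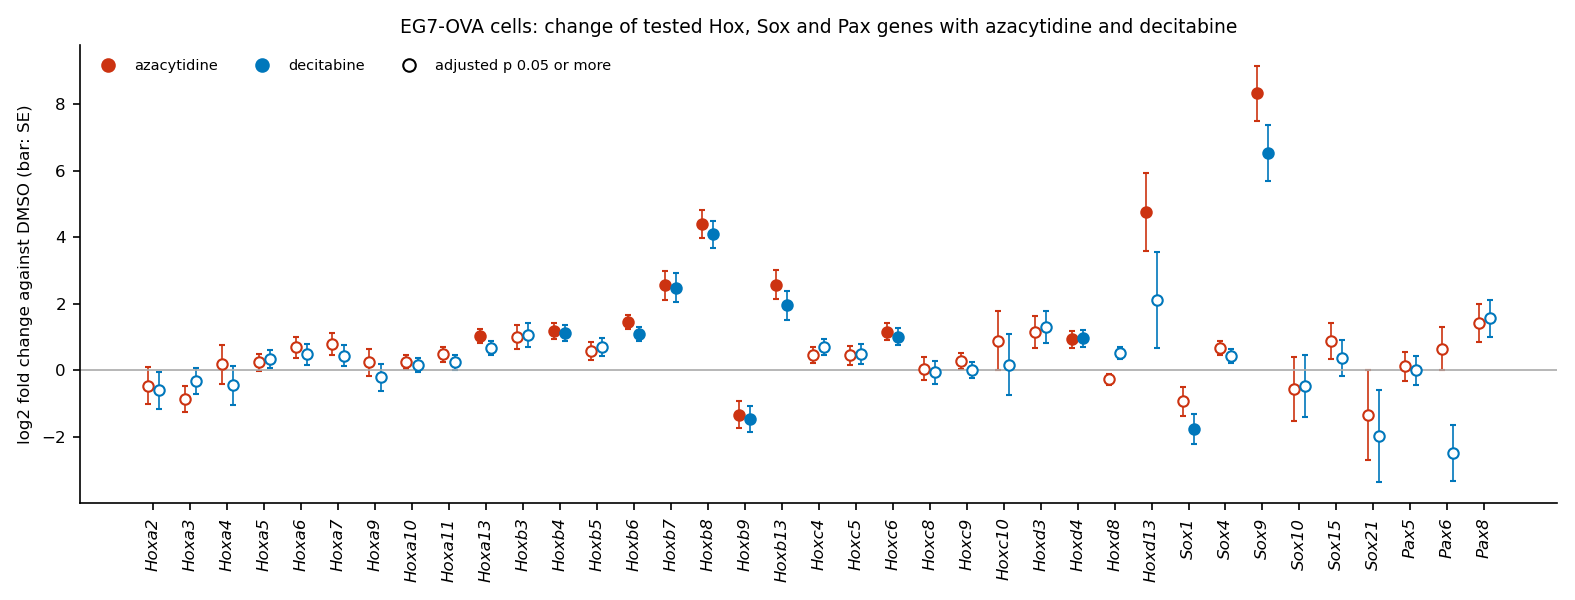
Log2 fold change against DMSO of 37 of the 38 tested Hox, Sox and Pax genes in EG7-OVA cells with azacytidine (red) and decitabine (blue), 1 point per gene and drug with bars of 1 standard error from the fit. Filled points passed the adjusted p of 0.05. Sox9 (8.32 and 6.53) stands highest, then Hoxd13 (4.75) and Hoxb8 (4.40) with azacytidine and Hoxb8 (4.08) with decitabine, and Hoxb9 lies below 0 with both drugs.

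The Hoxb cluster held the most calls: 5 of its 8 tested genes rose with each drug and 1 fell. Hoxb8, a factor that sustains myeloid progenitors, stood at 0.452 and 0.349 CPM (the usual per-library scaling of read counts, on effective library sizes) with DMSO, from 9 and 7 reads. It stood at 9.02 and 8.17 CPM with azacytidine and at 5.81 and 7.98 CPM with decitabine. All 4 treated libraries lay above both controls, and the log2 fold change was 4.40 (SE 0.41, adjusted p = 0.000119) with azacytidine and 4.08 (SE 0.41, adjusted p = 0.000214) with decitabine. The neighbouring Hoxb7 had 0.804 and 0.449 CPM under DMSO, 3.59 and 3.81 under azacytidine and 3.21 and 3.83 under decitabine. Again no treated library reached down to the controls, with log2 fold changes of 2.55 (SE 0.44, adjusted p = 0.00307) and 2.48 (SE 0.44, adjusted p = 0.00413).

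Hoxb6, active in early blood progenitors, was well expressed before treatment at 13.4 and 13.8 CPM. It stood at 38.0 and 35.9 CPM with azacytidine and 24.5 and 33.2 CPM with decitabine, which is 2.72 and 2.12 times the control in the fit (adjusted p = 0.00151 and 0.00767). Hoxb4, which expands blood stem cells when forced, went from 9.25 and 13.6 CPM to 26.8 and 25.0 with azacytidine and 24.8 and 24.5 with decitabine. Its rise was 2.27-fold (adjusted p = 0.00719) and 2.16-fold (adjusted p = 0.0117), and the treated libraries lay close together. Hoxb13, the gene at the far 5′ end and a factor of the tail bud and prostate, had 1.81 and 4.44 CPM in its controls. With azacytidine it had 21.2 and 16.0 CPM and with decitabine 9.07 and 15.0, log2 fold changes of 2.57 (SE 0.44, adjusted p = 0.00292) and 1.94 (SE 0.43, adjusted p = 0.0129). The decitabine calls of Hoxb4, Hoxb6 and Hoxb13 were lost without decitabine replicate 2 (adjusted p = 0.0556, 0.0770 and 0.0950). Hoxb4 also lost its azacytidine call without azacytidine replicate 1 (adjusted p = 0.0558), and both calls without DMSO replicate 1 (adjusted p = 0.0522 and 0.0815).

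Hoxb9 moved the other way. It had 5.28 and 8.82 CPM under DMSO, 3.20 and 2.38 under azacytidine and 2.65 and 2.46 under decitabine. It fell by 1.34 on the log2 scale with azacytidine (SE 0.39, adjusted p = 0.0376) and by 1.46 with decitabine (SE 0.39, adjusted p = 0.0300), and no treated library reached a control. The azacytidine call was lost without either azacytidine library or without DMSO replicate 2 (adjusted p = 0.0904, 0.163 and 0.134), and the decitabine call without either decitabine library or DMSO replicate 2 (adjusted p = 0.0947, 0.157 and 0.0997). In GENCODE vM21 on mm10, Hoxb9 (chr11:96271457-96276595) lies 5.31 kb from Hoxb8 (chr11:96281905-96285315), and Hoxb8 lies 1.31 kb from Hoxb7 (chr11:96286623-96290162). A gap of 74.0 kb separates Hoxb9 from Hoxb13 (chr11:96194316-96197447). The only Hoxb gene that fell thus lies between genes that rose.

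Hoxb3 and Hoxb5 did not pass, at log2 fold changes of 0.99 (adjusted p = 0.0864) and 0.57 (adjusted p = 0.164) with azacytidine and 1.06 (adjusted p = 0.0795) and 0.70 (adjusted p = 0.104) with decitabine. Without DMSO replicate 2, Hoxb3 passed with both drugs, at 1.43 (adjusted p = 0.0296) and 1.50 (adjusted p = 0.0273). Its exons overlap those of the antisense Hoxb3os over 52.9% of their length, and the strand setting of the counting is not given in the sources used here, so the reads of such partners cannot be told apart. Hoxb2 had at most 8 reads in any library, and Hoxb1 had 0 in all 6. The plot of the Hoxb cluster places these levels along the chromosome.

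**Figure D2:**
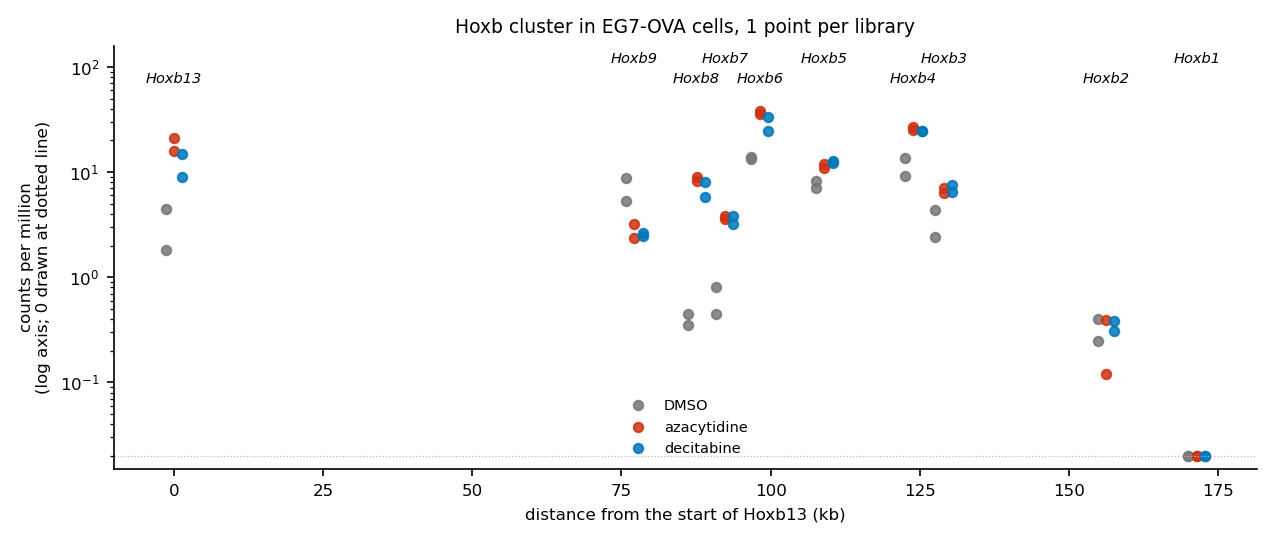
CPM of the 10 Hoxb genes in EG7-OVA cells against distance from the start of Hoxb13 in kb, 1 point per library, with DMSO in grey, azacytidine in red and decitabine in blue set slightly apart sideways, on a log axis with 0 at the dotted line. Hoxb8 and Hoxb7 show the widest gap between control and treated libraries, and Hoxb9, just beside them, has its controls on top.

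Outside the Hoxb cluster, Sox9 rose most. Sox9, a cartilage and stem-cell factor, had 1 and 0 reads under DMSO, 157 and 170 under azacytidine and 32 and 78 under decitabine. The treated libraries were all far above the controls, those with decitabine less so. Against 1 control read the ratio was 407 (95% counting interval 72.6 to 16135) with azacytidine and 116 (20.4 to 4620) with decitabine. The fitted log2 fold changes of 8.32 (SE 0.82, adjusted p = 0.000139) and 6.53 (SE 0.84, adjusted p = 0.000745) depend on the prior count at such low control reads. Counting intervals and bounds here cover counting error only.

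Among the other clusters, Hoxc6 had 21.8 and 30.0 CPM under DMSO, 53.6 and 62.2 under azacytidine and 39.6 and 64.2 under decitabine, a rise of 2.24-fold (adjusted p = 0.0106) and 2.00-fold (adjusted p = 0.0237). Hoxd4 went from 8.85 and 10.9 CPM to 17.1 and 20.5 and to 16.6 and 21.8, log2 fold changes of 0.93 (adjusted p = 0.0285) and 0.96 (adjusted p = 0.0286). For both genes the treated libraries cleared the controls, and all 4 calls were lost when some single libraries were left out. Without DMSO replicate 1 the adjusted p was 0.146 and 0.149 for Hoxd4 and 0.0597 and 0.131 for Hoxc6, and without decitabine replicate 2 the decitabine values were 0.218 and 0.211. Hoxa13, a limb and hindgut factor at the 5′ end, had 17.5 and 18.1 CPM under DMSO, 33.8 and 38.1 under azacytidine and 24.5 and 32.5 under decitabine. It rose 2.02-fold with azacytidine (adjusted p = 0.00792, and 0.0672 without azacytidine replicate 2) and missed the threshold with decitabine at 1.60-fold (adjusted p = 0.0524). It passed with decitabine in DESeq2 (adjusted p = 0.0407) and without decitabine replicate 1 (adjusted p = 0.0497).

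Hoxd13, the digit-forming gene at the end of its cluster, had 1 and 0 reads under DMSO, 17 and 10 under azacytidine and 4 and 1 under decitabine. It passed with azacytidine (adjusted p = 0.0173, ratio 33.6, counting interval 5.54 to 1377), not in DESeq2 (adjusted p = 0.0541) nor without either azacytidine library or DMSO replicate 2 (adjusted p = 0.191, 0.0675 and 0.0790). With decitabine the ratio was 5.27 (0.590 to 249) and the adjusted p 0.369. Sox1, a neural precursor factor, had 2.21 and 2.89 CPM under DMSO, 1.05 and 1.61 under azacytidine and 0.714 and 0.765 under decitabine. Both treated groups lay below the controls. Sox1 fell by 1.78 on the log2 scale with decitabine (SE 0.46, adjusted p = 0.0241), and its change with azacytidine of -0.94 did not pass (adjusted p = 0.166). The decitabine call was lost without either decitabine library (adjusted p = 0.105 and 0.122) and without DMSO replicate 2 (adjusted p = 0.0680).

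A further 7 members had no read in either DMSO library and were too low for the test. They were Pax1, Pax2 and Pax9 and the Sox genes Sox8, Sox11, Sox12 and Sox13. Sox8, a relative of Sox9, had 16 and 8 reads with azacytidine and 4 and 6 with decitabine, at least 9.96-fold and 3.51-fold higher than a floor of 3 reads over the control group. Sox11, a neural factor, had 14 and 5 reads with azacytidine (at least 7.89-fold higher) and 0 and 2 with decitabine, where no fold can be given. Bounds of the other 5 were 2.91 to 5.40 with azacytidine and 2.46 to 5.27 with decitabine. The DMSO libraries were the deepest or near it, at 21048979 and 19116049 reads against 15690747 and 16515050 with azacytidine. In these controls 39 and 44 of the 67 members had a read. Azacytidine libraries had 57 and 56 such members, decitabine libraries 51 and 55. Genes of the whole table shifted the same way, as 24601 and 26252 of them had a read in the controls. Azacytidine libraries had 27272 and 28476 such genes, decitabine libraries 28746 and 28777. Whether members shifted more than other genes was not tested. With no filter on low counts, Sox8 and Sox13 passed with both drugs and Pax1, Sox11 and Sox12 with azacytidine.

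The most abundant members were expressed before treatment. In RPKM, which is CPM divided by exon length in kilobases, Hoxd8 stood first with DMSO at 50.0 ± 2.87 (SD, n = 2), next to Sox4 at 45.6 ± 0.36, then Hoxa10 at 14.8 ± 2.89, Hoxa11 at 13.3 ± 2.51 and Hoxc6 at 10.7 ± 2.42. The last 3 do not differ beyond their spread. Sox4, which early T and B cells need, had 220 and 217 CPM under DMSO, 345 and 349 under azacytidine and 228 and 364 under decitabine, and missed the threshold (adjusted p = 0.0525 and 0.204). With azacytidine it passed in DESeq2 (adjusted p = 0.0217), with no filter (0.0115), with the stricter filter (0.0411), with the crossed block (0.0274) and with only the 4 compared libraries (0.0237), at log2 fold changes of 0.64 to 0.67. Hoxd8 had 132 and 143 CPM under DMSO, 126 and 100 under azacytidine and 213 and 181 under decitabine (adjusted p = 0.309 and 0.0721). Of 11 tested Hoxa genes, the other 10 did not pass with azacytidine and all 11 did not with decitabine. Hoxa10 (log2 fold changes 0.25 and 0.16), Hoxa11 (0.48 and 0.23) and Hoxc9 (0.27 and -0.01) are examples among the abundant ones. Pax5 had 1.51 and 2.59 CPM under DMSO, 2.48 and 1.97 under azacytidine and 1.68 and 2.40 under decitabine, with groups that overlapped, and none of 10 tested B-cell markers passed. The B-cell list summed to 205 and 270 CPM under DMSO, 264 and 265 under azacytidine and 241 and 298 under decitabine. The controls differed from each other for Sox21 (0 and 46 reads) and Hoxc10 (1 and 28 reads). Hoxc10 passed with both drugs without DMSO replicate 2, at log2 fold changes of 4.52 (adjusted p = 0.0102) and 3.80 (adjusted p = 0.0315).

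Between the drugs, whose doses differ, no member passed, against 0% of all genes tested. By unadjusted p under 0.05 there were 4, and DESeq2 and a run with no filter each called 2, Hoxd8 and Sox9. The shares of all genes at that unadjusted p and in those runs are not given here. These counts therefore say nothing of members in general. Hoxd8 was lower with azacytidine by 0.80 on the log2 scale in the fit (95% interval -1.19 to -0.40, unadjusted p = 0.00112, adjusted p = 0.230), with libraries that did not overlap. Sox9 was higher with azacytidine by 1.79 (0.69 to 2.89, adjusted p = 0.367), Hoxd13 by 2.64 (0.58 to 4.69, adjusted p = 0.589) and Pax6, an eye factor, by 3.14 (1.32 to 4.96, adjusted p = 0.320). Pax6 had 12 and 12 reads with azacytidine, 2 and 1 with decitabine and 8 and 11 with DMSO, and the ratio between the drugs was 9.45 (counting interval 2.87 to 49.0). For Hoxb8 the difference was 0.32 (-0.42 to 1.06), for Hoxb7 0.07 (-0.80 to 0.95) and for Hoxb9 0.13 (-0.76 to 1.01). All 3 intervals include differences in either direction.

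Genes that act with or on the Hox genes were read from fixed lists. Of the TALE proteins, which bind DNA beside Hox proteins, 4 of 7 tested rose and 1 fell with azacytidine, and 3 rose and 1 fell with decitabine. Pknox2 had mean levels of 0.100 CPM with DMSO, 2.51 with azacytidine and 2.83 with decitabine, log2 fold changes of 4.56 (adjusted p = 0.000963) and 4.73 (adjusted p = 0.000897). With DMSO it lay under the read minimum, so it entered the test through treated libraries and had to be higher there. Meis3 rose by 1.28 and 0.95 on the log2 scale, and Pknox1 fell by 1.03 and 1.06. The list medians were 0.72 and 0.45. Of 17 Polycomb genes, 1 rose and 2 fell with azacytidine and 0 rose and 2 fell with decitabine; Mtf2 (-0.83 and -0.76) and Phf19 (-0.70 and -1.10) fell with both. Of 14 MLL and trithorax genes, which keep Hox genes active, 2 rose and 2 fell with azacytidine and 1 rose and 2 fell with decitabine, among them Aff1 (0.58 and 0.65) and Wdr5 (-0.63 and -0.71). Of 8 tested non-coding RNAs and Evx genes of the clusters, only Hoxb5os passed, at 1.35 (adjusted p = 0.00465) and 1.15 (adjusted p = 0.0120). Of 13 genes flanking the clusters, 1 rose and 3 fell with azacytidine and 1 rose and 2 fell with decitabine. Skap1, an adaptor of T-cell receptor signalling beside the Hoxb cluster, fell by 1.67 (adjusted p = 0.000155) and 1.07 (adjusted p = 0.00197).

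Markers of other cell types also moved in these cultures. Macrophage genes summed to 7.44 and 9.17 CPM under DMSO, 23.3 and 21.0 under azacytidine and 40.1 and 34.9 under decitabine, and 4 of 6 tested rose with each drug, while the defining C1qa, C1qb and C1qc had 0 reads in all 6 libraries. Fibroblast genes summed to 559 and 547 CPM under DMSO, 790 and 631 under azacytidine and 721 and 775 under decitabine, 3 of 6 rose, and Col3a1 and Dcn had 0 reads. The fibroblast list shares Thy1 with the T-cell list, so its sum includes a gene that T cells express. T-cell genes summed to 1271 and 1398 CPM under DMSO, 1789 and 1501 under azacytidine and 1797 and 1784 under decitabine.

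**Figure D3:**
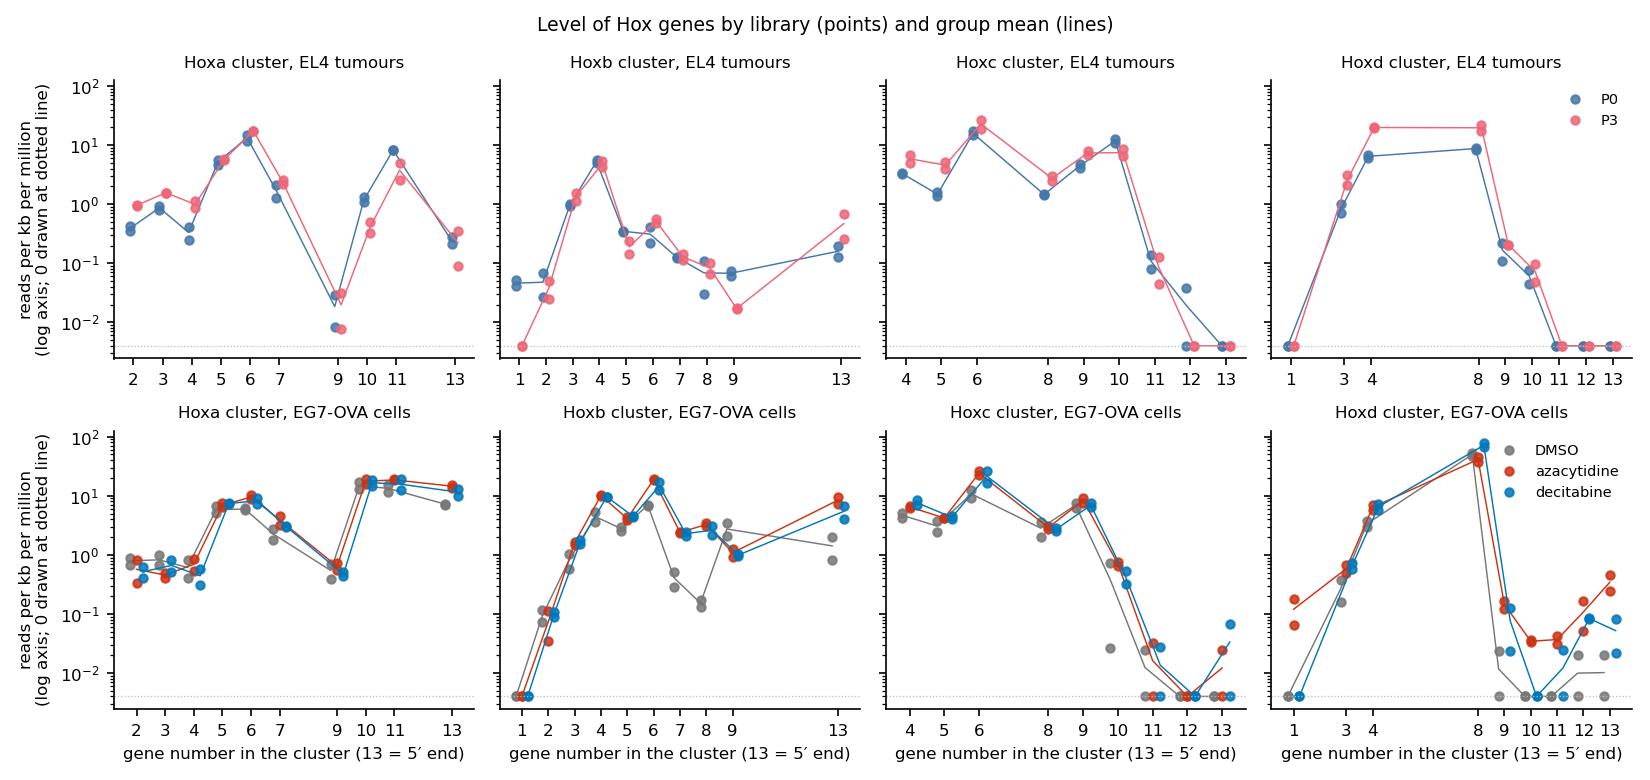
RPKM (CPM divided by exon length in kilobases) for Hox genes, 1 point per library with group means joined by lines, on a log axis with 0 at the dotted line. Upper panels show EL4 tumours and lower panels EG7-OVA cells, 1 panel per cluster. The 2 tables were normalised separately. In the Hoxb panel of EG7-OVA the control line dips at genes 7 and 8, and in the Hoxd panel of EL4 the P3 line lies above P0 at genes 3, 4 and 8.

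In EL4 tumours, 18 of 36 tested members differed between P3 and P0, against 38.7% of all 19993 genes tested. Of these 12 were higher in P3, where 18.8% of all genes were, and 6 were lower, where 19.9% were. The member median log2 fold change was 0.48 and that of all genes -0.00. Of the 47 described members 11 were too low for the test, and 9 of the 36 did not reach the read minimum in both groups, among them the called Hoxa4 and Sox12. Sox12 entered the test through the P0 libraries and so had to be lower in P3. Hoxa4 reached the minimum in both P3 libraries and 1 P0 library, so the filter favoured a higher level in P3. Of the 27 members at the minimum in both groups, 16 were called. The share of all genes called under that condition was not computed. All 18 calls were lost without either P0 library, where no gene of the whole table passed. By cluster, 3 of 4 tested Hoxd genes were higher, 4 of 6 Hoxc genes were higher and 1 lower, 3 of 10 Hoxa genes were higher and 2 lower, and 0 of 5 Hoxb genes passed. The plot of the 18 members shows their libraries.

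**Figure D4:**
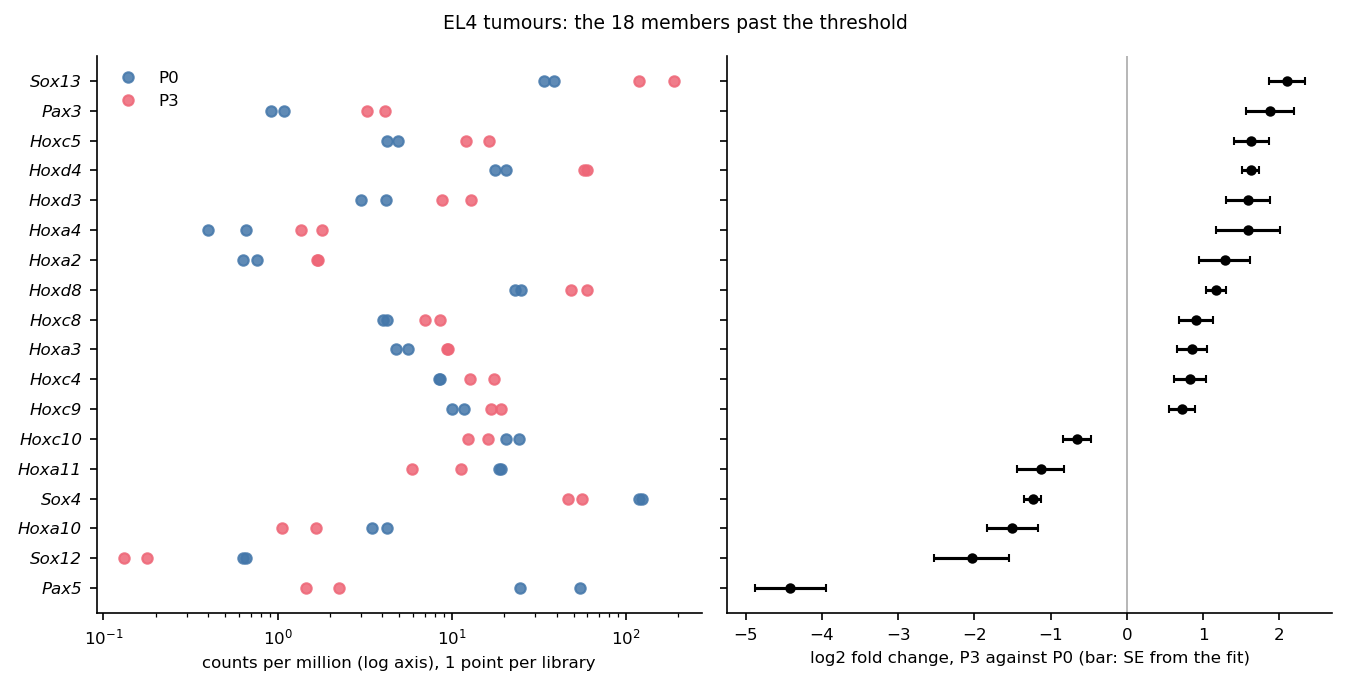
Left, CPM on a log axis in the 2 P0 (blue) and 2 P3 (red) tumour libraries for the 18 members past the threshold. Right, their log2 fold change of P3 against P0 with 1 standard error from the fit. Sox13 (2.10) is at the top and Pax5 (-4.41) at the bottom. The 18 were chosen by their test on these same libraries, so the gap drawn between P0 and P3 libraries adds no support.

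Hoxd3, Hoxd4 and Hoxd8 are neighbours of the Hoxd cluster that pattern the hindbrain and trunk. Hoxd4 stood at 20.4 and 17.8 CPM in P0 and 57.8 and 59.8 CPM in P3. Hoxd8 stood at 25.0 and 23.1 CPM in P0 and 48.6 and 59.6 CPM in P3. Hoxd3 stood at 4.21 and 3.02 CPM in P0 and 8.85 and 12.9 CPM in P3. All 3 were higher in both P3 libraries, by 3.08-fold (adjusted p = 0.00122), 2.25-fold (adjusted p = 0.00363) and 3.00-fold (adjusted p = 0.0116). Hoxd3 and Hoxd4 share exon sequence with each other and with the readthrough model Gm28230, over 39.1% of the exon bases of Hoxd4 for the latter, so their reads may be split between them. Hoxd9, the other tested gene, had 0.237 and 0.477 CPM in P0 and 0.442 and 0.439 in P3 and did not pass, and the antisense Hoxd3os1 rose by 1.76 on the log2 scale (adjusted p = 0.00263).

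In the Hoxc cluster, Hoxc5 rose from 4.26 and 4.89 CPM to 12.1 and 16.3 (3.10-fold, adjusted p = 0.00560). Hoxc4, Hoxc8 and Hoxc9 were higher by log2 fold changes of 0.83, 0.91 and 0.73, each with an adjusted p of 0.0294 or less. Hoxc10, a hindlimb gene further to the 5′ side, was lower in P3, at 12.4 and 16.2 CPM against 24.4 and 20.6 (-0.65, adjusted p = 0.0411). Hoxc6, the cluster's most abundant gene per length, at 15.9 ± 1.80 RPKM in P0 and 22.9 ± 5.83 in P3 (SD, n = 2), did not pass (adjusted p = 0.0799). The Hoxa cluster showed the same split by position. Hoxa2 (1.28), Hoxa3 (0.85) and Hoxa4 (1.58) were higher in P3, the calls of Hoxa2 and Hoxa4 being lost in DESeq2 (adjusted p = 0.150 and 0.105), while Hoxa10, with 4.26 and 3.50 CPM in P0 and 1.06 and 1.67 in P3, and Hoxa11, with 19.1 and 18.7 CPM in P0 and 5.93 and 11.3 in P3, were lower. Hoxa10 fell by 1.50 (SE 0.34, adjusted p = 0.0209) and Hoxa11 by 1.13 (SE 0.31, adjusted p = 0.0370) on the log2 scale. The antisense Hoxa11os covers 35.0% of Hoxa11 exons. Hoxa5, Hoxa6, Hoxa7 and Hoxa13 did not pass, with log2 fold changes of -0.13 to 0.48. The difference between the front and rear genes was not tested.

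Of the Sox genes, Sox13, a factor of the gamma delta T-cell lineage, stood at 38.5 and 33.7 CPM in P0 and at 189 and 119 in P3. Both P3 libraries lay above P0, at 4.27-fold in the fit (adjusted p = 0.00327). Sox4 stood at 123 and 118 CPM in P0 and 55.8 and 46.7 in P3, and fell by 1.24 on the log2 scale (SE 0.11, adjusted p = 0.00224). The lincRNA Gm26735 lies antisense to 54.6% of Sox4 exon bases. Its relative Sox12 had 14 and 16 reads in P0 and 4 and 3 in P3 and fell by 2.04 (adjusted p = 0.0256), a call lost in DESeq2 (adjusted p = 0.183) and without P3 replicate 2 (adjusted p = 0.0755). Per length, Sox13 was the highest member in P3 at 35.7 ± 11.5 RPKM and Sox4 the highest in P0 at 25.2 ± 0.67 (SD, n = 2).

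Pax5, the factor that commits cells to the B lineage, had 519 and 1365 reads in P0 and 33 and 51 in P3, or 24.6 and 54.3 CPM against 1.46 and 2.24. Every P3 library lay far below P0, and Pax5 fell by 4.41 on the log2 scale (SE 0.47, adjusted p = 0.00297). All 13 tested B-cell markers fell too, at a median log2 fold change of -4.97. The B-cell list summed to 414 and 628 CPM in P0 and 139 and 138 in P3, and Igll1 had 0 reads in P3. Such a sum follows the most abundant genes of the list, the median its typical gene. The P0 library with more Pax5 was also the one with the higher B-cell sum. In such bulk libraries fewer cells of a type and less RNA per cell cannot be told apart. Pax3, a neural crest and muscle precursor factor, rose from 1.09 and 0.915 CPM to 4.11 and 3.25 (3.67-fold, adjusted p = 0.00886).

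Other cell type lists shifted between the tumours. All 10 macrophage markers fell, with sums of 1331 and 1651 CPM in P0 and 350 and 335 in P3. Fibroblast markers summed to 3816 and 3745 CPM in P0 and 2210 and 1613 in P3, with 4 of 10 lower and 1 higher. Thy1 again counted in both the fibroblast and the T-cell list. T-cell markers summed to 1972 and 1747 CPM in P0 and 1331 and 1451 in P3, with Trbc1 and Trbc2 at 0 in all libraries. Endothelial markers, 1 of 10 of which fell, summed to 267 and 268 CPM in P0 and 269 and 183 in P3, and the endothelial factors Sox7, Sox17 and Sox18 did not pass. Whether these shifts bear on the Hox and Sox differences was not tested.

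One tumour library stood apart in muscle genes: skeletal muscle markers summed to 511 CPM in P3 replicate 1 against 4.39 in P3 replicate 2 and 21.2 and 22.4 in P0. Sox7 had 25 reads in P3 replicate 1, near the 24 and 31 of P0, and 5 in P3 replicate 2. Sox6, a muscle fibre and cartilage factor, had 54 reads in the muscle-rich library against 2 in the other P3 library. In P0 Sox6 had 16 and 15. Sox9 had 9 and 4 reads in P0, 0 in P3 replicate 2 and 14 in the muscle-rich library. Without that library all 18 calls held, and Hoxc6 (0.78), Hoxb3 (0.70), Sox6 (-2.85) and Sox7 (-2.39) passed as well. Sox13 was then higher by 1.74 and Pax3 by 1.71 on the log2 scale. Without P3 replicate 2 instead, Sox6 passed in the opposite direction at 1.81 (adjusted p = 0.000537), so its direction rested on 1 library.

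Of the fixed lists in EL4, 3 of 9 TALE genes fell in P3, among them Meis3 (-0.61) and Pbx3 (-0.42). Polycomb genes gave 2 higher and 1 lower of 17, with Mtf2 at -0.98 (adjusted p = 0.00240). MLL and trithorax genes gave 4 higher and 2 lower of 14, with Men1 at -1.10 (adjusted p = 0.00298) and Kdm6b at 0.71 (adjusted p = 0.00745). Flanking genes gave 2 higher and 1 lower of 13, with Smug1 beside the Hoxc cluster at 0.99 and Skap1 at 0.57, both higher.

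In NKYS, human RNA was counted on mouse gene identifiers, and how the authors came to do so is not given in the sources used here. Only genes whose reads were assigned to the mouse gene could be seen, so a low or absent count says nothing of the human gene, and levels are not compared between genes. Which human gene gave the reads was not tested, so each change below is one of reads on the mouse gene. With azacytidine 6 of 10 tested members were called, against 5.99% of all 2672 genes tested, and all 6 rose, where 3.41% of all genes rose and 2.58% fell. Of the 17 described members 7 were too low for the test. Only 5 of the 10 tested reached the read minimum in both groups, and 1 of these, Hoxc10, was called. Of the other 5 calls, Pax6, Hoxd10, Hoxa5 and Hoxb9 were of members that entered the test through the azacytidine libraries. These had to be higher there. Sox2 reached the minimum in both azacytidine libraries and 1 DMSO library, so the filter favoured a higher level with azacytidine. The count thus says nothing of members in general. The plot of NKYS reads shows all 17.

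**Figure D5:**
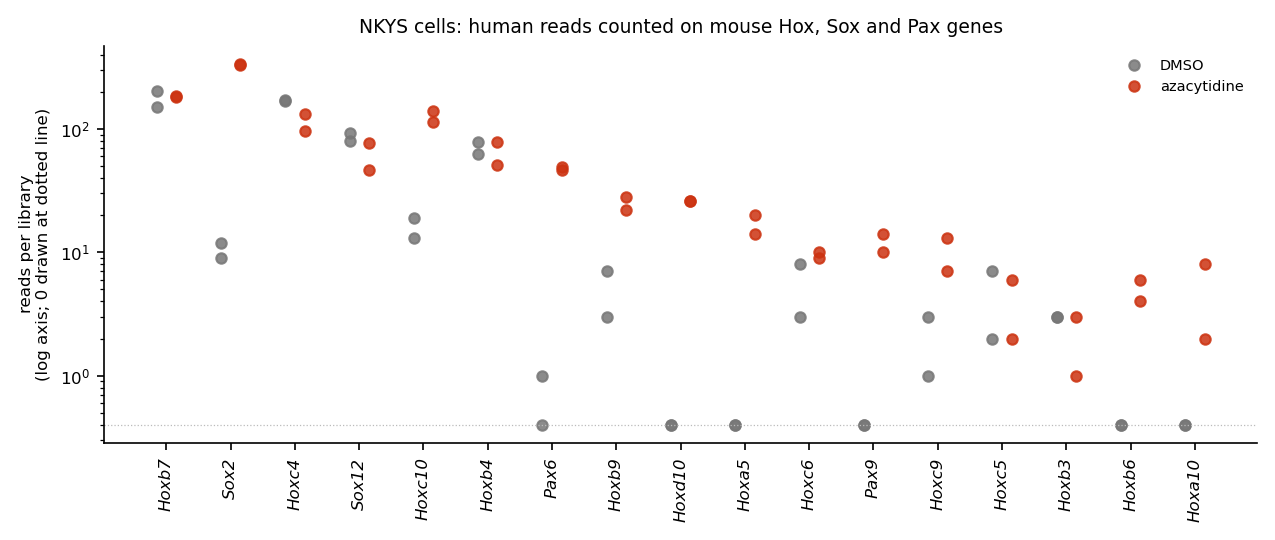
Reads per library on mouse Hox, Sox and Pax genes in NKYS cells with DMSO (grey) and azacytidine (red), on a log axis with 0 at the dotted line, for the 17 members with 10 or more reads. Sox2 rises from 9 and 12 reads to 332 and 338, and the dotted line holds the DMSO libraries of Hoxd10, Hoxa5, Pax9, Hoxb6 and Hoxa10.

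Sox2, a pluripotency and neural factor, had 9 and 12 reads with DMSO and 332 and 338 with azacytidine, or 5.12 and 6.71 against 207 and 231 CPM. The groups lay far apart, at a log2 fold change of 5.19 (SE 0.18, adjusted p = 7.98e-06). Hoxc10 had 13 and 19 reads with DMSO and 139 and 113 with azacytidine, 9.03-fold higher (adjusted p = 0.000645). Pax6 had 0 and 1 reads against 46 and 49, a ratio of 110 (counting interval 19.3 to 4388, adjusted p = 0.00237). Hoxd10, a limb and spinal cord gene, had 0 reads with DMSO and 26 and 26 with azacytidine, at least 20.1-fold higher than the floor of 3 reads (adjusted p = 0.00644). Hoxa5, a lung and skeletal factor, had 0 reads with DMSO and 14 and 20 with azacytidine, at least 13.1-fold higher (adjusted p = 0.0113). Without either DMSO library the Hoxa5 call was lost (adjusted p = 0.117 and 0.126).

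Hoxb9 had 3 and 7 reads with DMSO and 22 and 28 with azacytidine and rose 5.69-fold (adjusted p = 0.0292), a call lost in DESeq2 (adjusted p = 0.0897) and without either DMSO library (adjusted p = 0.198 and 0.130). Among members too low for the test, Pax9, a thymus and tooth factor, had 0 reads with DMSO and 10 and 14 with azacytidine (at least 9.26-fold higher), and Hoxb6 and Hoxa10 were at least 3.86-fold higher. With 0 reads under DMSO, Pax9, Hoxb6 and Hoxa10 were described through azacytidine reads only and so had to be higher there. The other 4 tested members did not pass: Hoxb7 had 149 and 203 reads with DMSO and 184 and 182 with azacytidine, Hoxc4 172 and 168 against 96 and 131, Sox12 79 and 92 against 46 and 77, and Hoxb4 78 and 63 against 51 and 78. Hoxc4 passed without azacytidine replicate 2, at -0.68 (adjusted p = 0.0265). Pax5 had 0 reads in all 4 libraries, as did 13 of the 14 B-cell markers, Ebf1 being the other, and all 10 T-cell markers. Of the fixed lists, 1 of 4 TALE genes rose, Meis1 with a mean of 0.285 CPM under DMSO and 17.9 under azacytidine (adjusted p = 0.00644). Meis1 lay under the read minimum with DMSO, so it entered the test through azacytidine libraries and had to be higher there. Of 10 Polycomb genes 1 fell, Bmi1 at -0.49, and of 7 MLL and trithorax genes 1 fell, Psip1 at -0.46.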

How the data were processed

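Each library was sequenced as total RNA, 2 libraries per group, and each series table covered 1 cell system. For EL4 and NKYS the authors deposited unnormalised read counts for each gene. The deposited EG7-OVA table holds counts per gene symbol in which 145 values of 62 genes were not whole, none of them a member, so it was handled like expected counts from the authors and rounded. The submitters' processing notes name fastp, Trim Galore, STAR and featureCounts and the builds GRCh38 and mm10, without versions or roles. NKYS identifiers were matched to mouse symbols with the names given for Ensembl genes, and 970 had no symbol. No per-sample column was left unused. Some genes that the counts include are not reported here by name.

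Counts were filtered by filterByExpr, which here needed about 0.446, 0.534 and 6.21 CPM in EL4, EG7-OVA and NKYS, scaled by TMM and fitted with glmQLFit in edgeR 4.0.16 under R 4.3.3, 1 mean per group, with all 6 EG7-OVA libraries in 1 fit. Comparisons used the quasi-likelihood F-test (two-sided) with Benjamini-Hochberg adjustment over all genes of the table. The biological coefficient of variation was 0.188, 0.244 and 0.125. RPKM used GENCODE vM21 exon lengths. A group at 0 reads was set to a floor of 3 counts over the group, and for 1 to 3 reads the ratio of reads is given with an exact 95% interval. The script was tested on simulated data. Members and gene lists were chosen with earlier results of these data known. Named members passed the test in some comparison, were among the 8 most abundant or stood alone in their family, and up to 3 genes per list were named by smallest p. Other members named for their values, such as Sox6, Sox8, Sox11 and Sox21, were chosen after their values were seen. Alternatives were DESeq2 1.42.0, limma-voom (limma 3.58.1), median-ratio size factors, no filter, a filter of 1 CPM, a replicate block, only the 4 compared libraries and leaving out each library; limma-voom and the crossed block were chosen after seeing the data.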

Additional observations from a re-analysis of the deposited data

Results flagged for a closer look

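Mean levels of Hoxb9 and Hoxc4 went opposite ways with azacytidine in the 2 cell lines, and the difference between the lines was not tested. Mean Hoxb9 was 2.79 CPM with azacytidine and 7.05 with DMSO in EG7-OVA, and 16.4 with azacytidine and 2.81 with DMSO in NKYS, with no overlap of libraries in either. In NKYS, however, Hoxb9 entered the test through the azacytidine libraries and so had to be higher there, and its call was lost in DESeq2. Mean Hoxc4 was 16.6 CPM with azacytidine and 12.1 with DMSO in EG7-OVA, and 74.7 with azacytidine and 95.9 with DMSO in NKYS, and neither change passed the test. The lines differ in species and dose, NKYS values are human reads on mouse genes, and the tables were normalised separately.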

How the results depend on the processing

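The number of members past the threshold was 18 in EL4 (leave-one-out 0 to 22, 0 without either P0 library), 11 with azacytidine in EG7-OVA (7 to 13), 10 with decitabine (3 to 11, 3 without decitabine replicate 2), 0 between the drugs (0 to 0) and 6 in NKYS (4 to 6). Leaving out a library leaves 1 in its group, which is assumed to vary like the others. With no filter the counts were 17 with azacytidine, 2 between the drugs and 10 in NKYS, and DESeq2 gave 2 between the drugs. The shares of all genes called in those runs are not given here. Apart from libraries left out, all other alternatives stayed within 1.5 times the main count, except the block in EL4. No called member reversed its direction in any alternative run on it. Hoxd4 lost its azacytidine call without either azacytidine library or DMSO replicate 1 (adjusted p = 0.0747, 0.166 and 0.146) and its decitabine call without decitabine replicate 2, without DMSO replicate 1 and with only the 4 compared libraries (0.218, 0.149 and 0.0503). Hoxc6 lost them without azacytidine replicate 2 or DMSO replicate 1 (0.0757 and 0.0597) and without decitabine replicate 2 or DMSO replicate 1 (0.211 and 0.131). Hoxa13 lost its azacytidine call without azacytidine replicate 2 (0.0672), and Hoxa2 and Hoxa4 theirs in DESeq2 (0.150 and 0.105).

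With a replicate block by library number, EL4 gave 10 members, all among the 18. The same numbers did not deviate together in EL4 (r = -0.04) or NKYS (r = -0.09), and in EG7-OVA r was 0.27 between the drugs, -0.26 between azacytidine and DMSO and -0.19 between decitabine and DMSO, where the titles number the DMSO libraries differently from the library names. Numbers were therefore not read as pairs. The block gave 10, 10, 0 and 6 members in the other comparisons. With the DMSO numbers crossed it gave 13 with azacytidine and 12 with decitabine. Depth limits NKYS most, at 1571555 to 1842159 reads per library, and groups of 2 limit all comparisons.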
